A study of Homo sapiens with 4 samples.

Results

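Lysosomes break down proteins, sugars and lipids, and the gene group described here comprises 42 human genes that encode their soluble hydrolases, their membrane proteins, their proton pump and one of their transcriptional regulators. The genes were taken from a list drawn up by name, not by measured values, and each was measured as the sum of FPKM (fragments counted per kilobase of a transcript and scaled to a library's mapped fragments) over its annotated transcripts of protein-coding type. All 42 were found among 19004 coding genes named in the files, with 182 coding transcripts among 402 annotated ones. The genes were sorted into 8 roles: 3 aspartic, serine and carboxypeptidase proteases, 9 cysteine cathepsins, 10 glycosidases, 3 sulfatases, 7 proteins of lipid breakdown, 5 membrane proteins, 4 proton pump subunits and the regulator TFEB.

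RNA was extracted from WI-38, an established fibroblast line of human fetal lung whose cells cease to divide after repeated passage. The 4 libraries were senescent whole cells and a senescent mitoplast fraction at population doubling level 60, and young whole cells and a young mitoplast fraction at level 21, all in the same culture medium and with no treatment named. Mitoplasts are mitochondria stripped of the outer membrane; per the labels' protocols, CHAPS-lysed cells gave crude mitochondria, which were swollen in hypotonic buffer and exposed to RNase A before and after the final pellet was collected. With 1 library in each group there is no replicate check and no p-value, and a difference between conditions and a difference between libraries cannot be told apart.

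Hydrolases are made at the endoplasmic reticulum, tagged with mannose 6-phosphate in the Golgi apparatus and carried to lysosomes, where a proton-pumping ATPase keeps the interior acidic. Their genes share control by TFEB and its relatives MITF and TFE3, which bind E-box motifs of the letters CACGTG in many lysosomal promoters. Enlarged lysosomes and raised beta-galactosidase activity, which is encoded by GLB1, are long-known marks of senescent fibroblasts.

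Promoter windows of 250 bases before and 50 bases after the gene start, taken from RefSeq on GRCh38.p14 (a build other than the hg19 named for the deposited files), were available for 30 of the 42 genes, in 44 windows. The palindrome CACGTG, which reads the same on both strands, was present in 10 windows (22.7%), against 2548 of all 35116 windows in the table (7.26%). The longer palindrome TCACGTGA contains it, and was present in 5 windows (11.4%: ATP6V0D1, CTSA, GAA, LAMP1 and MCOLN1), against 344 of all windows (0.980%). The windows of 3 genes are shown because they hold different numbers of the motif and belong to genes described below. A window lies at 1 annotated start of its gene and other starts are not covered. That of ATP6V0D1 lies at chr16:67481108-67481407 on the minus strand, LAMP1 at chr13:113296989-113297288 on the plus strand and GAA at chr17:80101331-80101630 on the plus strand; each is written 5′ to 3′ along the gene, with CACGTG in capitals.
ATP6V0D1: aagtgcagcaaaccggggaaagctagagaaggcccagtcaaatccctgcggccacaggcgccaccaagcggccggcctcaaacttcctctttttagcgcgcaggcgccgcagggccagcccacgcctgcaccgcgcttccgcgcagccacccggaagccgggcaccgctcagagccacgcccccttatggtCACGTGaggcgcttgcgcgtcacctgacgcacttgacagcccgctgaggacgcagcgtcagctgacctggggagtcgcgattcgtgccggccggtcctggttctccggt
LAMP1: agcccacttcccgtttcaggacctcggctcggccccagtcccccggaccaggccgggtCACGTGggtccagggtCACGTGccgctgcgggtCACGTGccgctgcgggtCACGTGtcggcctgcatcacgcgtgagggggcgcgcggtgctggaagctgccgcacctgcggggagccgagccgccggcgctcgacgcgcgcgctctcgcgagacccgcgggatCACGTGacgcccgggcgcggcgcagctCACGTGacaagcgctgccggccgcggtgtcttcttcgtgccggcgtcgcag
GAA: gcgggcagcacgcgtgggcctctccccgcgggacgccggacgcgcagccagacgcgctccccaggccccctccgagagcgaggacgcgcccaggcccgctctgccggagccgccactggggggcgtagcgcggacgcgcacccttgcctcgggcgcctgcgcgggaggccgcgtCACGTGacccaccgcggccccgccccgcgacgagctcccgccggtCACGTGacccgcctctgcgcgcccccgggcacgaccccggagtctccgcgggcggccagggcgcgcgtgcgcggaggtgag
The LAMP1 window held 6 copies of CACGTG, the GAA window 2 copies, both within TCACGTGA, and the ATP6V0D1 window 1 copy. A match is a run of letters and not a measured binding site.

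Across the libraries, the 42 genes summed to 2058 FPKM in senescent whole cells, 1524 FPKM in young whole cells, 598 FPKM in the senescent mitoplast and 665 FPKM in the young mitoplast. They made up 0.706% of the FPKM of all nuclear coding genes in senescent whole cells and 0.435% in young whole cells, and 0.676% in the senescent mitoplast against 0.241% in the young mitoplast. At 1 FPKM or more were 36 of the 42 in senescent whole cells, 34 in young whole cells, 20 in the senescent mitoplast and 30 in the young mitoplast. The senescent mitoplast library stood apart over the whole transcriptome: 22.2% of coding genes that reached 50 FPKM in young whole cells were listed at 0 there, against 5.18% in the young mitoplast and 3.60% in senescent whole cells. An exact 0 in these files can be a failed estimate, so such genes are described as listed at 0. Genes encoded by mitochondrial DNA held 8.73% of the coding sum in senescent whole cells and 32.7% in young whole cells, and 25.3% in the senescent mitoplast against 68.2% in the young mitoplast. Assembled transcripts without an Ensembl identifier held 76.2% of all FPKM in senescent and 53.7% in young whole cells. In mitoplasts they held 97.3% (senescent) and 92.7% (young). Annotated transcripts were thus an unequal part of each library, which limits every ratio and every value listed at 0.

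Cell identity followed the labels in whole cells. Of 10 division genes, 8 were measurable and 7 of them were lower in senescent than in young whole cells, among them MKI67 at 0.264 FPKM in senescent cells and 12.1 FPKM in young cells. Most fibroblast markers were abundant in both, with COL1A1 at 846 FPKM in senescent and 1501 FPKM in young whole cells, although 4 of 14 markers (COL3A1, COL6A1, VIM and S100A4) had a log2 ratio of -1 or below and 2 were higher (LUM, and PDGFRB, which was listed at 0 in young whole cells). The 14 macrophage and leukocyte markers, cells that are rich in lysosomes, summed to 4.29 FPKM in senescent and 3.33 FPKM in young whole cells, and PTPRC, TYROBP, MARCO and CD3E were listed at 0 in all 4 libraries. The epithelial list summed to 22.2 and the endothelial list to 25.3 FPKM in senescent whole cells, against 23.2 and 29.0 FPKM in young whole cells. In such bulk material, a change in RNA per cell and a change in the number of cells of a type cannot be told apart.

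**Figure D1:**
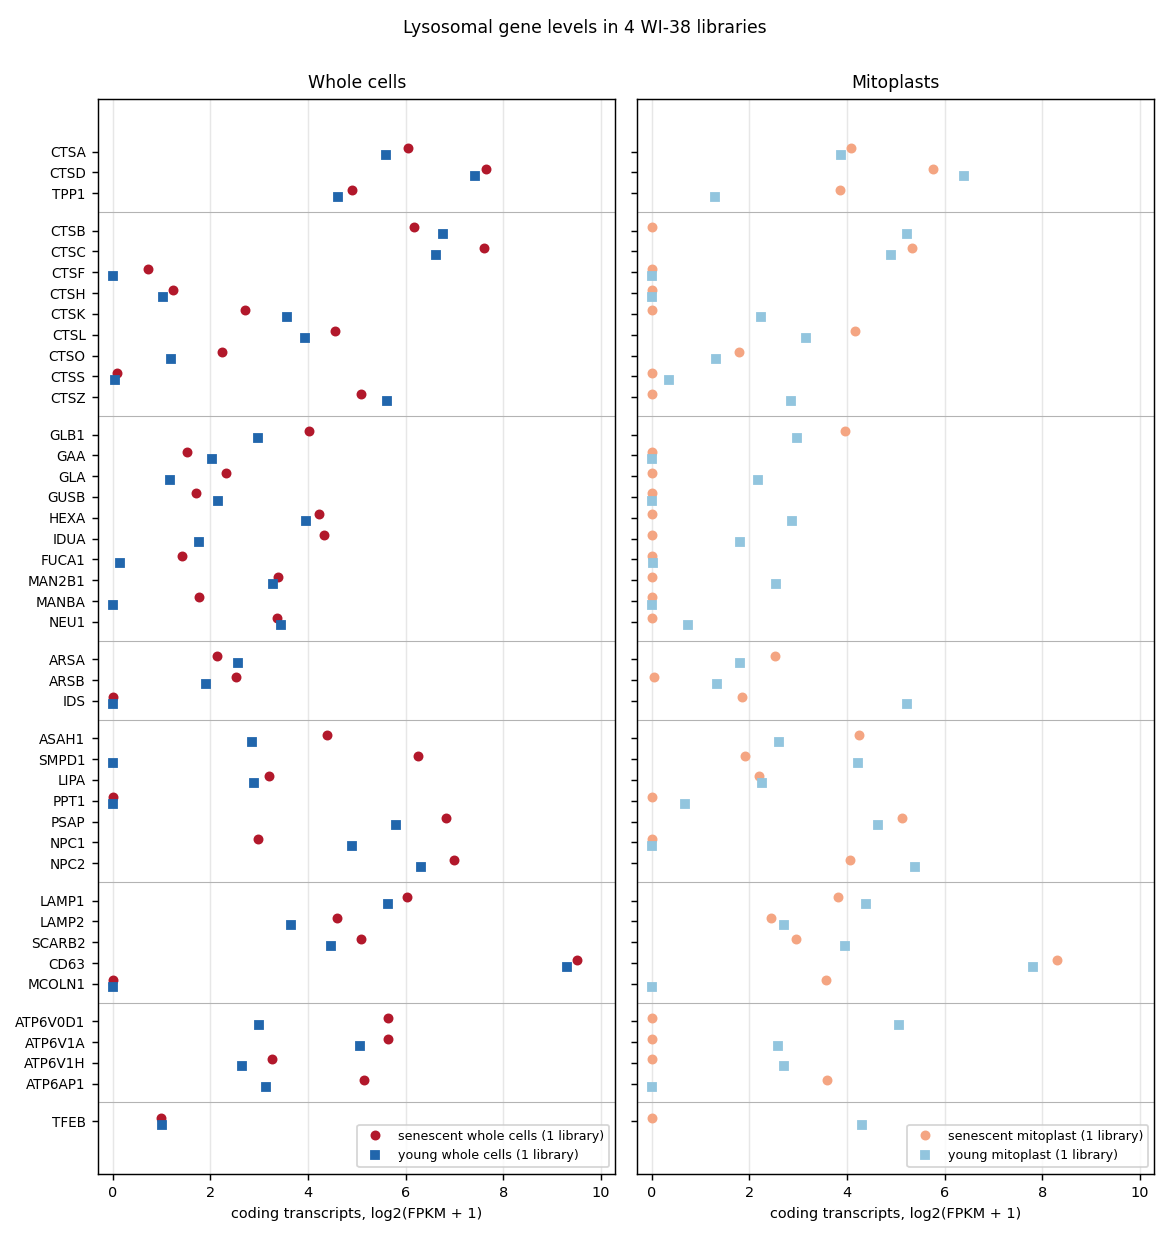
Level of each of the 42 genes, as log2(FPKM + 1) summed over coding transcripts, in whole cells and in mitoplasts. Each point is 1 library, senescent or young, with genes grouped by role; CD63 is the highest gene in every library, at 729.8 FPKM in senescent and 633 FPKM in young whole cells, and many points of the senescent mitoplast lie at 0.

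In whole cells, lysosomal genes of several roles were higher in the senescent library, among them proton pump subunits, glycosidases and lipid enzymes, while 1 protease and 0 membrane proteins passed the threshold. Of the 42 genes, 37 reached 1 FPKM in at least 1 of the 2 libraries; the other 5 (CTSF, CTSS, IDS, PPT1 and MCOLN1) did not and were not compared. Ratios are log2((senescent + 1)/(young + 1)) in FPKM, which understates differences of low genes, and a gene counts as higher or lower at a ratio of at least 1 or at most -1. By that rule 11 genes were higher and 1 was lower, while 15.5% of all 9556 coding genes compared were higher and 22.4% were lower. The median ratio of the 37 was 0.57, against -0.18 over all coding genes, and 28 of the 37 had a ratio above 0. With libraries rescaled to equal sums of nuclear coding genes, which leaves out the mitochondrial genes, 13 were higher and 1 lower (median 0.83 against 0.07 over all coding genes). Over all coding genes 19.1% were then higher and 17.8% lower. With equal sums of all coding genes it was 21 higher and 1 lower (median 1.17 against 0.45), while 28.5% of all coding genes were higher and 12.8% lower. The 11 genes were spread over glycosidases (GLB1, GLA, IDUA, FUCA1, MANBA), lipid proteins (ASAH1, PSAP, SMPD1), proton pump subunits (ATP6V0D1, ATP6AP1) and 1 cathepsin (CTSO), and the lower gene was NPC1.

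**Figure D2:**
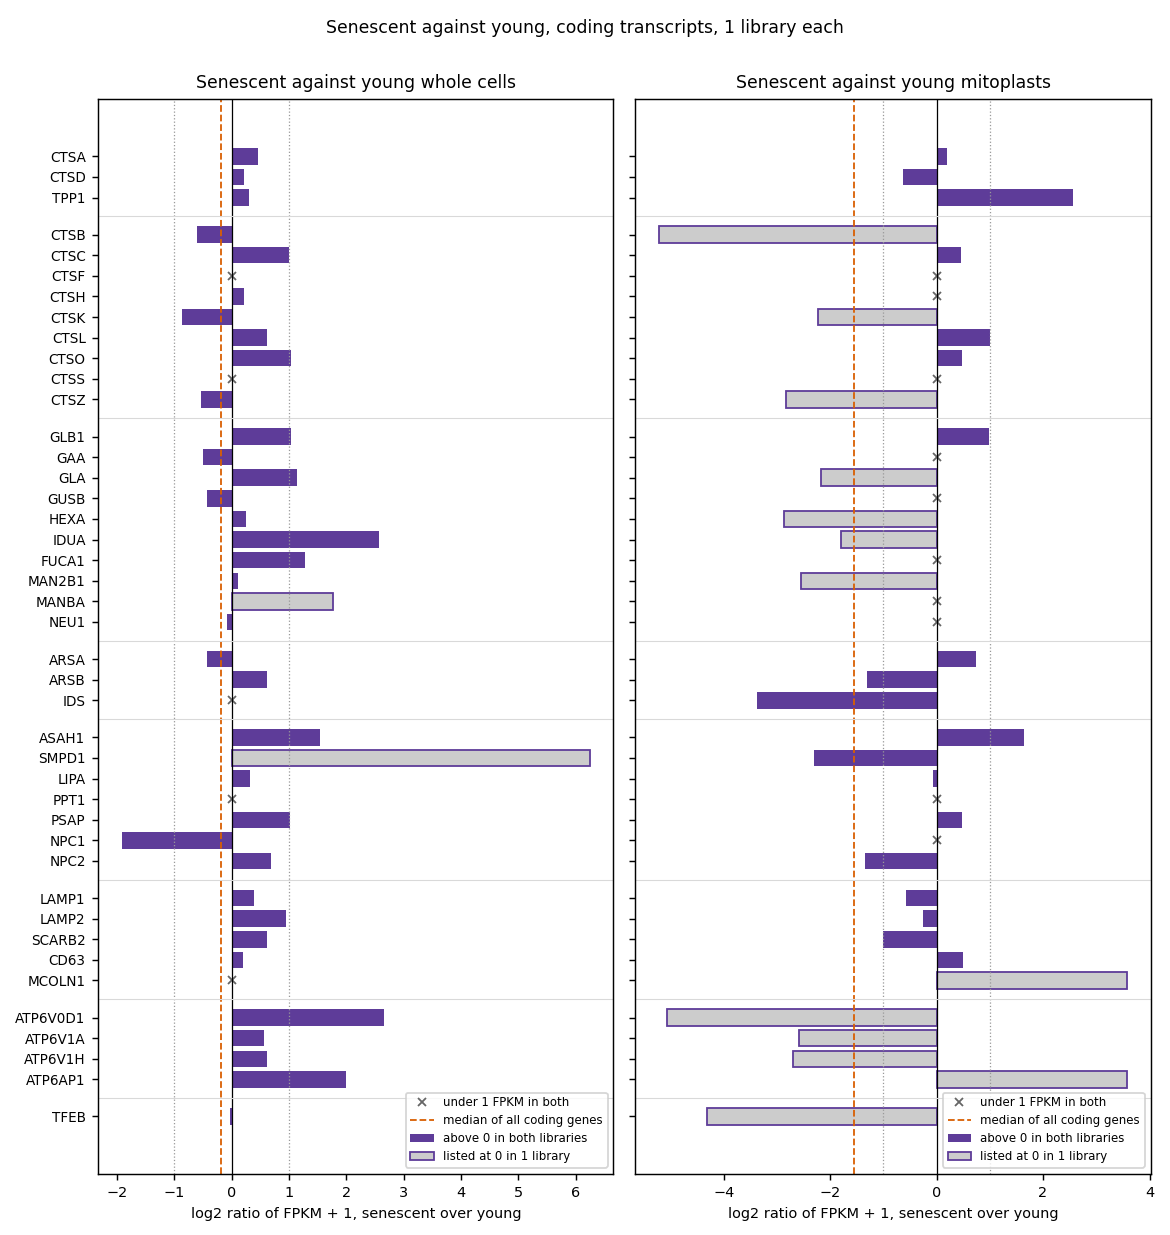
Log2 ratio of senescent to young for each gene, in whole cells and in mitoplasts, on the log2(FPKM + 1) scale, with genes grouped by role. Grey bars have a value listed at 0 in 1 of the 2 libraries, crosses are genes under 1 FPKM in both, and the dashed lines mark the median of all coding genes, -0.18 in whole cells and -1.55 in mitoplasts.

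Among the glycosidases, 5 of 10 were higher in senescent whole cells and 0 were lower. GLB1, the lysosomal beta-galactosidase behind the staining used to mark senescent cells, had 15.1 FPKM in senescent whole cells and 6.91 FPKM in young whole cells, 2.19 times as high (log2 ratio 1.03). All of its annotated FPKM in both whole-cell libraries sat in 1 full-length coding transcript of 2616 nt. The ratio stayed past 1 in each of the alternative settings tried. Settings that change which transcripts are counted could not move it, because all annotated FPKM sat in that transcript. Unnamed transcripts were added only for loci with 1 named gene, which leaves out that of GLB1 and its neighbour TMPPE. Those of this shared locus held 17.7 FPKM in senescent and 11.6 FPKM in young whole cells, and how much of that is GLB1 is not known.

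GLA, the alpha-galactosidase that is deficient in Fabry disease, was at 3.96 FPKM in senescent and 1.25 FPKM in young whole cells, in a single coding transcript of 1318 nt. IDUA, the iduronidase of dermatan and heparan sulfate breakdown, was at 19.2 FPKM in senescent and 2.41 FPKM in young whole cells. The IDUA value for senescent cells was made of 5.84 FPKM in the full-length transcript and of 2 fragments of 714 and 586 nt that were listed at 0 in young whole cells. Young whole cells held another 30.6 FPKM of unnamed transcripts assembled within the IDUA locus, and with these counted the ratio turned to -0.75, so the direction for IDUA rests on how such transcripts are treated.

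FUCA1, the fucosidase, was at 1.68 FPKM in senescent and 0.108 FPKM in young whole cells, both low levels. MANBA, the beta-mannosidase, had 2.42 FPKM in senescent whole cells and was listed at 0 in young whole cells, so no fold is given. The remaining glycosidases differed by less: HEXA, a subunit of beta-hexosaminidase, was at 17.6 FPKM in senescent and 14.6 FPKM in young whole cells, and MAN2B1, the lysosomal alpha-mannosidase, at 9.51 FPKM in senescent and 8.72 FPKM in young whole cells. GAA, the acid alpha-glucosidase that clears glycogen, and GUSB, the beta-glucuronidase, had ratios of -0.51 and -0.43, and the sialidase NEU1 had a ratio of -0.08.

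Proton pump subunits had the highest median ratio of the roles with more than 1 gene, 1.30 over 4 genes, and all 4 had ratios above 0. ATP6V0D1, the d subunit of the membrane sector, was at 48.8 FPKM in senescent and 6.96 FPKM in young whole cells (7.02 times as high, ratio 2.65). The senescent value was split over coding transcripts of 680 nt (27.4 FPKM), 1716 nt (11.7 FPKM) and 1262 nt (9.75 FPKM), and over complete reading frames alone the levels were 21.4 FPKM in senescent and 6.96 FPKM in young whole cells. With all annotated and unnamed transcripts of the locus counted, unnamed ones being listed at 0 in senescent and at 13.6 FPKM in young whole cells, the ratio was 1.10. ATP6AP1, an accessory subunit needed for pump assembly, was at 34.3 FPKM in senescent and 7.86 FPKM in young whole cells (4.36 times as high, ratio 1.99), all in a coding transcript of 2099 nt, or a ratio of 1.28 with unnamed transcripts of its locus added. ATP6V1A, which carries the catalytic ATP site, was at 48.5 FPKM in senescent and 32.4 FPKM in young whole cells. ATP6V1H, a regulatory subunit, was at 8.63 FPKM in senescent and 5.28 FPKM in young whole cells. Over all coding transcripts ATP6V1A and ATP6V1H were thus higher by less than the threshold. Of the ATP6V1A values, a coding fragment of 710 nt held 35.8 FPKM in senescent and 27.3 FPKM in young whole cells. Over complete reading frames ATP6V1A was at 12.7 FPKM in senescent and 5.07 FPKM in young whole cells, a ratio of 1.17, past the threshold.

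Lipid proteins held both directions. ASAH1, the acid ceramidase, was at 20.0 FPKM in senescent and 6.22 FPKM in young whole cells (3.21 times as high, ratio 1.54), although over complete reading frames it was at 5.48 FPKM in senescent and 2.40 FPKM in young whole cells, a ratio of 0.93. PSAP, the precursor of the saposins that present lipids to their enzymes, was at 112 FPKM in senescent and 54.6 FPKM in young whole cells (ratio 1.02), and at 0.48 once unnamed transcripts of its locus, listed in young whole cells at 25.5 FPKM, were added. SMPD1, the acid sphingomyelinase, had 75.3 FPKM in senescent whole cells and was listed at 0 in young whole cells. That value came from a coding fragment of 447 nt alone, and unnamed transcripts of the SMPD1 locus were at 44.8 FPKM in senescent and 32.1 FPKM in young whole cells, so the annotated 0 does not show that the gene was silent in young cells.

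NPC1 and NPC2 act in series to move cholesterol out of the lysosome, and their values summed over coding transcripts lay in opposite directions. NPC1, the membrane partner, was at 6.87 FPKM in senescent and 28.8 FPKM in young whole cells, a ratio of -1.92. Of the NPC1 value in young cells, 23.5 FPKM came from a coding fragment of 890 nt; in the full-length transcript of 5157 nt NPC1 was at 6.87 FPKM in senescent and 5.33 FPKM in young whole cells, a ratio of 0.31. NPC2, the soluble partner, was at 127 FPKM in senescent and 78.5 FPKM in young whole cells (ratio 0.68). A coding fragment of 469 nt held 103 FPKM of it in senescent and 69.6 FPKM in young whole cells. Over complete reading frames NPC2 was at 23.7 FPKM in senescent and 8.89 FPKM in young whole cells, a ratio of 1.32, on the same side as NPC1. LIPA, the acid lipase, had a ratio of 0.32, and PPT1, which removes palmitate from proteins, was listed at 0 in both whole-cell libraries.

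Proteases were among the most abundant of the genes. CTSD, the aspartic protease cathepsin D, was second only to CD63 in every library and was at 199 FPKM in senescent and 171 FPKM in young whole cells. The carboxypeptidase CTSA had a ratio of 0.45 and the tripeptidyl peptidase TPP1 a ratio of 0.30. Of 9 cysteine cathepsins, 7 were compared, 1 was higher and 0 were lower. That gene was CTSO, at 3.70 FPKM in senescent and 1.29 FPKM in young whole cells, and CTSC, a dipeptidyl peptidase that activates serine proteases, lay just under the threshold at 195 FPKM in senescent and 97.4 FPKM in young whole cells (ratio 0.99). CTSL had a ratio of 0.61 and CTSH of 0.21, while CTSB, CTSK and CTSZ had ratios of -0.60, -0.86 and -0.54. Over all annotated types CTSL turned to -0.46 and CTSH to -0.21, and CTSK passed the threshold at -1.59. CTSK, the collagen-degrading cathepsin best known from osteoclasts, was at 5.56 FPKM in senescent and 10.9 FPKM in young whole cells. CTSS, a cathepsin of antigen-presenting cells, was under 0.1 FPKM in both whole-cell libraries.

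The sulfatases ARSA and ARSB had ratios of -0.44 and 0.62. The membrane proteins were all higher in senescent whole cells by less than the threshold, over a range of 0.20 to 0.94 for the 4 compared. LAMP2, which also serves as a receptor of chaperone-mediated autophagy, was at 23.2 FPKM in senescent and 11.6 FPKM in young whole cells, and LAMP1, the other main glycoprotein of the lysosomal membrane, at 64.3 FPKM in senescent and 49.0 FPKM in young whole cells. With all annotated and unnamed transcripts of its locus counted, of which young whole cells held 25.0 FPKM, the LAMP1 ratio was -0.20. SCARB2, the receptor that carries beta-glucocerebrosidase, had a ratio of 0.61, and CD63, a tetraspanin of lysosomes and late endosomes, a ratio of 0.20.

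TFEB itself was low and close to equal, at 0.981 FPKM in senescent and 1.02 FPKM in young whole cells. Its relative TFE3 was at 7.88 FPKM in senescent and 7.93 FPKM in young whole cells, and TFEC was under 0.3 FPKM in both. MITF was at 468 FPKM in senescent and 141 FPKM in young whole cells, the leading contribution in both being a coding fragment of 542 nt at 275 FPKM in senescent and 89.8 FPKM in young whole cells. Of 25 genes of the TFEB family and its controllers, 21 were compared, 1 was higher (MITF) and 2 were lower (FLCN, listed at 0 in senescent whole cells and at 10.2 FPKM in young ones, and LAMTOR4), with a median ratio of -0.20.

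Other lysosomal genes, from lists grouped by function and not by direction, are given here for whole cells. Of 25 further hydrolases and cofactors compared, 9 were higher and 2 lower, with a median ratio of 0.43. LGMN, the asparaginyl endopeptidase legumain, was at 24.2 FPKM in senescent and 5.04 FPKM in young whole cells. Of the 9, 3 were listed at 0 in young whole cells. FUCA2, a secreted fucosidase, was at 16.1 FPKM in senescent and 3.82 FPKM in young whole cells, and CREG1, a lysosomal glycoprotein, at 6.98 FPKM in senescent and 0.999 FPKM in young whole cells. AGA, the aspartylglucosaminidase, lay the other way, at 0.415 FPKM in senescent and 5.43 FPKM in young whole cells, where 3.31 FPKM came from a fragment of 414 nt.

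Of 25 further lysosomal membrane proteins compared, 8 were higher and 2 lower (median 0.52). The amino acid transporter SLC36A1 was at 17.9 FPKM in senescent and 2.49 FPKM in young whole cells, and the cobalamin exporter LMBRD1 at 13.7 FPKM in senescent and 3.20 FPKM in young whole cells. The cystine exporter CTNS was at 1.59 FPKM in senescent and 11.2 FPKM in young whole cells, and LITAF at 21.1 FPKM in senescent and 61.7 FPKM in young whole cells. Of the CTNS value in young cells, 9.22 FPKM came from a coding fragment of 548 nt. The senescent CTNS value lay in a complete transcript of 2470 nt, so the direction for CTNS rests on that fragment.

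Of 12 further proton pump subunits compared, 6 were higher and 2 lower (median 0.63). Of the 8 membrane proteins and of the 6 subunits that were higher, 2 each were listed at 0 in young whole cells. ATP6V0B was at 28.3 FPKM in senescent and 12.3 FPKM in young whole cells, and ATP6V0E1 at 201 FPKM in senescent and 98.1 FPKM in young whole cells. ATP6V1G1 was at 85.1 FPKM in senescent and 29.5 FPKM in young whole cells, and the accessory subunit ATP6AP2 at 35.1 FPKM in senescent and 13.2 FPKM in young whole cells. The coding values of both sat in a single full-length transcript. Unnamed transcripts of the ATP6AP2 locus, not counted here, held a further 17.0 FPKM in senescent and 20.2 FPKM in young whole cells. Genes of mannose 6-phosphate tagging and sorting had 5 of 19 higher, of which 4 were listed at 0 in young whole cells, and 1 lower. The sorting receptor SORT1 was at 16.3 FPKM in senescent and 3.12 FPKM in young whole cells. The adaptor GGA1 was at 15.5 FPKM in senescent and 36.9 FPKM in young whole cells. Of the GGA1 value in young cells, 23.3 FPKM came from a coding fragment of 566 nt. The leading senescent GGA1 transcript was complete, at 11.5 FPKM. Genes of autophagy and lysosome repair were balanced, where 3 of the 19 were higher, all 3 listed at 0 in young whole cells, and 3 lower (median 0.07); LGALS3, a lectin that gathers on damaged lysosomes, was at 102 FPKM in senescent and 232 FPKM in young whole cells.

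In mitoplasts, the comparison of senescent with young gave fewer measurable genes and rested heavily on values listed at 0. Of 32 genes compared, 4 were higher and 16 lower, while 15.6% of all 9053 coding genes compared were higher and 65.0% were lower. The median ratio was -0.82, against -1.55 over all coding genes. Of the 32, 19 were above 0 in both libraries, 11 were listed at 0 in the senescent mitoplast and 2 in the young mitoplast. Among the 19 above 0 in both, 2 were higher and 5 were lower and the median was 0.19, on the other side of 0, while among all 4431 coding genes above 0 in both 15.0% were higher and 45.4% lower and the median was -0.82. Rescaling also moved the balance. With equal nuclear coding sums 14 genes were higher and 12 lower (median 0.98 against -0.61 over all coding genes), while 29.8% of all coding genes were higher and 46.9% lower. With equal coding sums 18 were higher and 10 lower (median 2.12 against 0.81), while 47.2% of all coding genes were higher and 37.4% lower.

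ASAH1 and TPP1 were higher in the senescent mitoplast with values above 0 in both libraries. ASAH1 was at 18.0 FPKM in the senescent and 5.06 FPKM in the young mitoplast (3.55 times as high, ratio 1.65), and so differed in the same direction as in whole cells. TPP1 was at 13.5 FPKM in the senescent and 1.46 FPKM in the young mitoplast (ratio 2.56), of which a fragment of 511 nt held 9.60 FPKM in the senescent one. ATP6AP1 was at 11.0 FPKM and MCOLN1 at 10.8 FPKM in the senescent mitoplast, and both were listed at 0 in the young one; MCOLN1, the lysosomal calcium channel, had its value in a single fragment of 666 nt that was listed at 0 elsewhere.

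GLB1 had almost the same coding levels in mitoplasts as in whole cells, at 14.6 FPKM in the senescent mitoplast and 6.89 FPKM in the young mitoplast (ratio 0.98), but not in the same transcripts. The senescent value came from a coding fragment of 591 nt, and the full-length transcript, which held all of GLB1 in whole cells, was listed at 0 there. In the young mitoplast a further 18.8 FPKM lay in a transcript of 569 nt annotated for nonsense-mediated decay, and with all annotated types summed GLB1 was at 14.6 FPKM in the senescent and 25.7 FPKM in the young mitoplast. Unnamed transcripts of the locus shared with TMPPE, not added, held 19.8 FPKM in the senescent and 2.94 FPKM in the young mitoplast.

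Genes lower in the senescent mitoplast with values above 0 in both were ARSB, IDS, SMPD1, NPC2 and SCARB2. NPC2 was at 15.6 FPKM in the senescent and 41.2 FPKM in the young mitoplast, and SCARB2 at 6.79 FPKM in the senescent and 14.6 FPKM in the young mitoplast. Coding transcripts of IDS, the iduronate sulfatase, were listed at 0 in both whole-cell libraries, and were at 2.61 FPKM in the senescent and 36.7 FPKM in the young mitoplast, where a fragment of 572 nt held 32.2 FPKM. IDS was not absent from whole cells: a transcript of 959 nt annotated for nonsense-mediated decay held 24.7 FPKM in senescent and 13.0 FPKM in young whole cells. For the proton pump subunits ATP6V0D1, ATP6V1A and ATP6V1H, coding transcripts were listed at 0 in the senescent mitoplast. In the young one they were at 32.6, 5.00 and 5.50 FPKM. Over all annotated types ATP6V0D1 was at 21.2 FPKM in the senescent and 32.6 FPKM in the young mitoplast (ratio -0.6). The ATP6V1A ratio was then -1.34. ATP6V1H was at 101 FPKM in the senescent and 15.4 FPKM in the young mitoplast, so its direction turned (ratio 2.64). Among the abundant genes directions were mixed. CTSD was at 53.6 FPKM in the senescent and 83.3 FPKM in the young mitoplast, and CTSB was listed at 0 in the senescent and at 36.4 FPKM in the young one. Over complete reading frames CTSD was at 7.83 FPKM in the senescent and 17.3 FPKM in the young mitoplast, a ratio of -1.05. CD63 was at 314 FPKM in the senescent and 222 FPKM in the young mitoplast, CTSC at 39.5 FPKM in the senescent and 28.7 FPKM in the young one, and PSAP at 33.7 FPKM in the senescent and 23.8 FPKM in the young one. The CTSC direction turned over complete reading frames, at 7.31 FPKM in the senescent and 28.7 FPKM in the young mitoplast (ratio -1.84).

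The remaining enzymes showed how uneven the mitoplast values were. CTSL was at 16.8 FPKM in the senescent and 7.93 FPKM in the young mitoplast, and CTSO at 2.45 FPKM in the senescent and 1.50 FPKM in the young one. ARSA, which removes sulfate from sulfatides, was at 4.76 FPKM in the senescent and 2.47 FPKM in the young mitoplast. Coding transcripts listed at 0 in the senescent mitoplast were those of CTSK and CTSZ, at 3.69 FPKM and 6.18 FPKM in the young one, and of HEXA, GLA and IDUA, at 6.28, 3.53 and 2.48 FPKM in the young one. Over all annotated types CTSK, CTSZ, HEXA and GLA were at 7.21, 33.2, 9.90 and 8.76 FPKM in the senescent mitoplast. In the young one they were at 3.69, 18.0, 6.28 and 3.53 FPKM, so the direction turned, while IDUA stayed listed at 0 in the senescent one. Coding transcripts of CTSF, CTSH, GAA, GUSB, MANBA and NPC1 were listed at 0 in both mitoplast libraries. Those of PPT1 and NEU1 were under 1 FPKM in the young mitoplast and listed at 0 in the senescent one. Over all annotated types GAA was at 4.87 FPKM in the senescent and 3.97 FPKM in the young mitoplast. MANBA and NPC1 were at 13.6 and 3.60 FPKM in the senescent one, and CTSH, GUSB and NEU1 at 4.33, 5.75 and 3.56 FPKM in the young one.

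**Figure D3:**
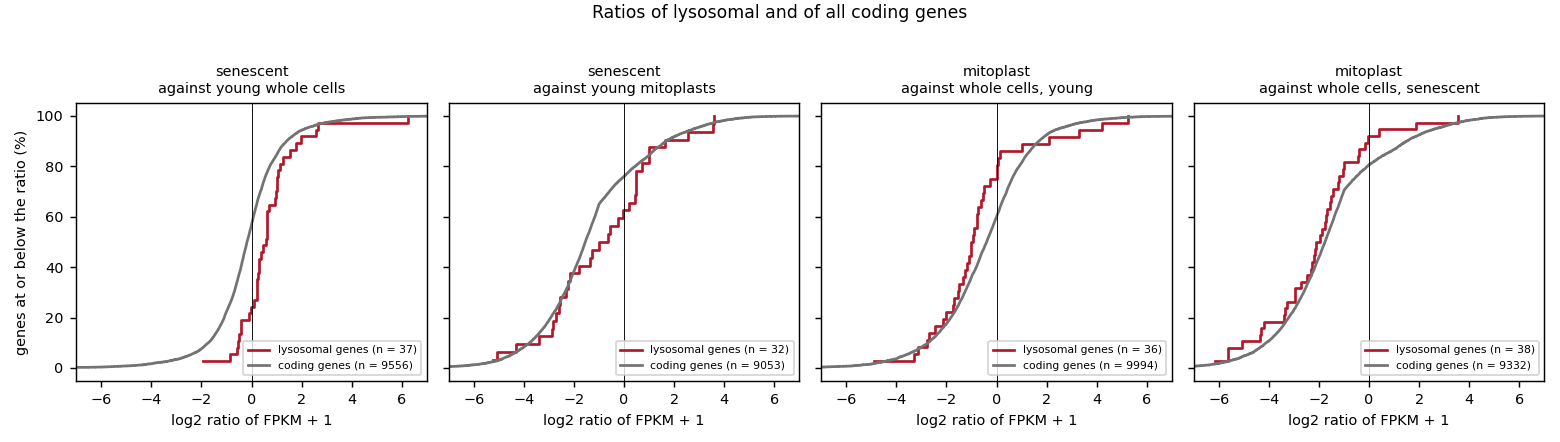
Cumulative share of genes by log2 ratio in the 4 comparisons, with the lysosomal genes and all coding genes as separate lines, for genes at 1 FPKM or more in either library. The 2 comparisons that use the senescent mitoplast library have the lowest medians over all coding genes, -1.55 and -1.76.

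The comparison of mitoplast with whole cells sets the FPKM of these nuclear genes, translated outside mitochondria, in the RNase-treated fraction against that in whole cells. FPKM is scaled within each library, so a ratio compares relative levels and does not measure how much RNA was recovered. In young cells 36 genes were compared, of which 5 were higher in the mitoplast and 18 lower, while 18.6% of all coding genes were higher and 36.1% lower; the medians were -0.99 for the lysosomal genes and -0.40 for all. All 3 proteases outside the cysteine cathepsins were lower in the young mitoplast, with CTSD at 83.3 FPKM in the mitoplast and 171 FPKM in whole cells. LAMP1 was at 20.0 FPKM in the young mitoplast and 49.0 FPKM in whole cells, and PSAP at 23.8 FPKM in the mitoplast and 54.6 FPKM in whole cells. Fibroblast markers lay on the same side, with 10 of 12 compared lower in the young mitoplast and a median of -1.72. With equal nuclear coding sums 5 of 35 lysosomal genes were higher and 13 lower (median -0.64 against -0.09 over all coding genes). Over all coding genes 23.4% were then higher and 31.0% lower. The ratios of CTSD, LAMP1 and PSAP were then -0.69, -0.92 and -0.83, short of the threshold.

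The 5 genes higher in the young mitoplast were ATP6V0D1, GLA, IDS, SMPD1 and TFEB. ATP6V0D1 was at 32.6 FPKM in the mitoplast and 6.96 FPKM in whole cells, or 14.3 FPKM in the mitoplast and 6.96 FPKM in whole cells over complete reading frames, a ratio of 0.95. TFEB was at 18.9 FPKM in the young mitoplast and 1.02 FPKM in whole cells, but 18.4 FPKM of it lay in a transcript of 223 nt, and without incomplete reading frames the ratio was -0.81. SMPD1 was at 17.6 FPKM in the mitoplast and listed at 0 in whole cells, and coding IDS was likewise listed at 0 in whole cells. GLA was at 3.53 FPKM in the mitoplast and 1.25 FPKM in whole cells, in a complete transcript in both, and its ratio was -0.30 once unnamed transcripts of its locus were added.

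In senescent cells 38 genes were compared between mitoplast and whole cells, of which 2 were higher (IDS and MCOLN1, both listed at 0 over coding transcripts in senescent whole cells) and 31 lower, while 13.3% of all coding genes were higher and 70.5% lower. The medians were -2.04 for the lysosomal genes and -1.76 for all coding genes, and 17 of the 38 were listed at 0 in the mitoplast. Above 0 in both libraries were 19 of the 38, beside 4581 of all 9332 coding genes compared. Over all annotated types the IDS ratio was -0.42. With equal nuclear coding sums 6 of 36 were higher and 18 lower, while 26.2% of all coding genes were higher and 50.7% lower. Of 10 glycosidases, 9 were listed at 0 over coding transcripts in the senescent mitoplast. GLB1 was the exception, in a fragment of 591 nt alone. Over all annotated types GAA, GLA, HEXA, MAN2B1 and MANBA were at 4.87, 8.76, 9.90, 19.3 and 13.6 FPKM in that library. Among genes with values in both, LAMP1 was at 13.2 FPKM in the mitoplast and 64.3 FPKM in whole cells, and CD63 at 314 FPKM in the mitoplast and 729.8 FPKM in whole cells. ASAH1 was at 18.0 FPKM in the mitoplast and 20.0 FPKM in whole cells (ratio -0.15). This comparison and the preceding ones share libraries, so their ratios are not independent of each other.

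The type of transcript in which a gene was found bears on each 0 above. Coding transcripts held 76.0% of the annotated FPKM of the 42 genes in senescent whole cells, 66.6% in young whole cells, 53.3% in the senescent mitoplast and 61.0% in the young mitoplast. Over all coding genes, mitochondrial ones included, the shares were 67.0% in senescent and 72.9% in young whole cells. They were 48.3% in the senescent and 85.9% in the young mitoplast. Mitochondrial genes held 68.2% of the coding sum in the young mitoplast and 32.7% in young whole cells. These shares are therefore not like for like with those of the 42 nuclear genes. In the senescent mitoplast 12 of 32 genes with at least 1 FPKM over all annotated types were listed at 0 in coding transcripts (37.5%), against 29.0% over all coding genes in that library; the counts were 3 in the young mitoplast, 1 in senescent and 2 in young whole cells, or 8.82%, 2.70% and 5.56%, against 13.4%, 7.63% and 7.87% over all coding genes in those libraries. CTSB, the cysteine protease cathepsin B, was the main source of noncoding FPKM: over all annotated types it was at 419 FPKM in senescent whole cells, 619 FPKM in young whole cells, 192 FPKM in the senescent mitoplast and 253 FPKM in the young mitoplast, mostly in a transcript of 660 nt annotated for nonsense-mediated decay. Its coding transcripts were at 71.0 FPKM in senescent and 108 FPKM in young whole cells, and were listed at 0 in the senescent mitoplast and at 36.4 FPKM in the young mitoplast. Without CTSB, the coding share of the other genes was 86.8% in senescent whole cells against 84.7% in young ones; in mitoplasts it was 64.3% (senescent) and 75.1% (young).

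Several genes had their senescent mitoplast value in noncoding types alone. ATP6V1H was at 101 FPKM in the senescent mitoplast over all annotated types, in transcripts of under 600 nt, and its coding transcripts were listed at 0. CTSZ had 33.2 FPKM there in a retained-intron transcript of 647 nt, and MAN2B1 had 19.3 FPKM in one of 574 nt. MAN2B1 also had 47.4 FPKM in young whole cells in a transcript of 554 nt that retains an intron, where its coding transcript was at 8.72 FPKM. Transcripts of under 600 nt held 24.2% of the annotated FPKM of the 42 genes in the senescent mitoplast and 20.0% in the young mitoplast, against 13.5% in senescent and 10.5% in young whole cells. Over all genes, mitochondrial ones included, the shares were 60.4% in the senescent and 59.8% in the young mitoplast, against 50.6% in senescent and 59.0% in young whole cells. The part of transcript length in the fraction ratios was not tested.

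**Figure D4:**
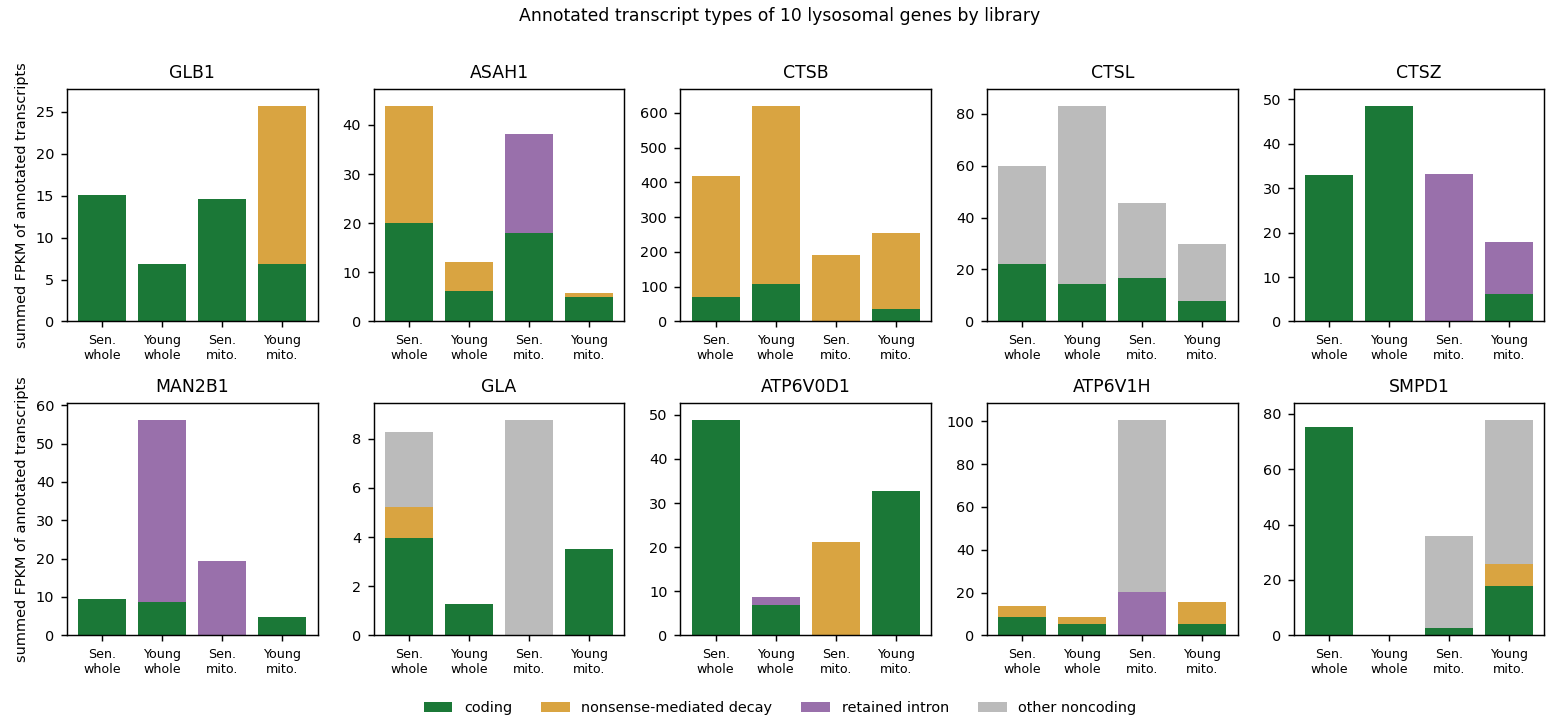
Summed annotated FPKM by transcript type, for 10 genes chosen after their values were seen, in each library. Stacked bars start at 0; the 2 whole-cell bars of GLB1 are coding throughout, whereas CTSB is mainly of the nonsense-mediated decay type in all 4 libraries.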

How the data were processed

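FPKM per transcript were deposited by the authors for each of 4 libraries, per the file headers, in files of 393483 transcripts: 185591 with an Ensembl identifier and 207892 assembled. Tools listed in the submitters' processing notes, with no order or role, are TopHat2 2.0.14, Cufflinks 2.2.1 and Cuffdiff, on hg19. The annotation release, strand setting and normalization were not given in the sources used here, so overlapping and antisense genes cannot be told apart. The files hold no counts, so depth is unknown and no interval is given. The TruSeq kit is named in the labels' protocols.

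GENCODE release 29 gave names, types, lengths and complete reading frames, and no coordinates; 93.0% of annotated transcripts received a symbol. Coding transcripts were summed per gene with Python 3.11.15 and pandas 2.3.3. Genes at 1 FPKM or more in either library were compared with a pseudocount of 1, and no test was possible with 1 library per group. The counting was checked on simulated data. The genes and lists were chosen with earlier results of these data known. All 42 genes are named; of each other list, up to 4 with the largest ratios past 1 either way in whole cells, at 5 FPKM or more in either library and above 0 in both, and TFEB relatives. Some alternatives were chosen after seeing the data.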

Additional observations from a re-analysis of the deposited data

Results flagged for a closer look

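Each gene below had FPKM above 0 in all 4 libraries and log2 ratios of opposite sign in 2 parallel comparisons, at least 1 apart. With 1 library per group the differences were not tested. The median over all coding genes also differed between the comparisons, -1.55 between mitoplasts and -0.18 between whole cells for senescent against young, and genes listed at 0 in any library were not considered. Both that limit and the minimum difference were set after the values had been seen; without the first, more genes would be given here, among them GLA, IDUA, SMPD1 and ATP6V0D1, each listed at 0 in 1 library.

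For senescent against young, NPC2 had a ratio of -1.34 in mitoplasts and 0.68 in whole cells, a difference of -2.03. In both mitoplasts all coding FPKM of NPC2 lay in a fragment of 469 nt. ARSB differed by -1.92, with -1.30 in mitoplasts and 0.62 in whole cells; its level in the senescent mitoplast was 0.0297 FPKM. SCARB2 differed by -1.62, with -1.0 in mitoplasts and 0.61 in whole cells. LAMP2 differed by -1.21, with -0.26 in mitoplasts and 0.94 in whole cells. ARSA differed the other way by 1.17, with 0.73 in mitoplasts and -0.44 in whole cells. The same 4 ARSA values give the difference of 1.17 for mitoplast against whole cells, with 0.40 in senescent and -0.77 in young cells. Several signs depend on scaling: with equal nuclear coding sums the mitoplast ratios of LAMP2, SCARB2 and NPC2 for senescent against young were 1.10, 0.49 and 0.24, on the same side as in whole cells, and with equal coding sums the whole-cell ratio of ARSA was 0.13.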

How the results depend on the processing

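No paired analysis was possible because each group holds 1 library. The complete-frame and equal-nuclear-sum settings were chosen after seeing the data, as was the limit of single-gene ratios to genes above 0 in both libraries. Depth is unknown, so the precision of low values is not known, and the causes of the differences below were not tested.

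For senescent against young whole cells, the 11 higher genes became 7 at 5 FPKM or more and 21 with equal coding sums, which also moved the median to 1.17. The 1 lower gene became 3 with all annotated transcripts, also with assembled ones added, and 0 with complete frames. The share of all coding genes that was higher was 15.5% in the main setting, 14.8% at 5 FPKM or more and 28.5% with equal coding sums. The share that was lower was 22.4% in the main setting and with all annotated transcripts, 20.3% with assembled ones and 21.6% with complete frames. Of the 9 higher genes above 0 in both libraries, 5 passed in every setting that gave a value: CTSO, GLB1, FUCA1, ATP6V0D1 and ATP6AP1. For CTSO, GLB1 and FUCA1 the settings that change which transcripts are counted could not move the ratio. CTSO and FUCA1 have 1 annotated transcript each, and for GLB1 unnamed transcripts of its shared locus were not added. GLA came out just under the threshold with assembled transcripts added. IDUA turned to -0.75 with assembled transcripts and NPC1 to 0.31 with complete frames.

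For senescent against young mitoplasts, the 4 higher genes became 9 with all annotated transcripts, with or without assembled ones, 12 with median-of-ratios scaling, 14 with equal nuclear sums, 18 with equal coding sums and 2 without genes listed at 0. Over all coding genes the share higher was 15.6% in the main setting. In the order just given it was 20.2% without and 17.6% with assembled transcripts, then 23.2%, 29.8%, 47.2% and 15.0%. The 16 lower genes became 10 at 5 FPKM or more, with all annotated transcripts and with equal coding sums, and 5 without genes listed at 0. Over all coding genes the share lower was 65.0% in the main setting and, in that order, 64.3%, 56.6%, 37.4% and 45.4%. The median of -0.82 turned to 0.09 with all annotated transcripts, 0.03 with assembled ones added, 0.12 with median-of-ratios scaling, 0.98 with equal nuclear sums, 2.12 with equal coding sums and 0.19 without genes listed at 0. With equal coding sums SMPD1 turned to 0.18, NPC2 to 1.42 and SCARB2 to 1.60; with equal nuclear sums NPC2 turned to 0.24 and SCARB2 to 0.49.

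For mitoplast against whole cells in young cells, the 5 higher genes became 3 with transcripts of 600 nt or more, 3 without genes listed at 0 and 2 with complete frames. Over all coding genes the share higher was 18.6% in the main setting and, in that order, 16.2%, 11.5% and 15.3%. The median of -0.99 became -1.62 with equal coding sums. GLA turned to -0.30 with assembled transcripts, and TFEB to -0.40 with transcripts of 600 nt or more and -0.81 with complete frames.

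For mitoplast against whole cells in senescent cells, the 2 higher genes became 1 at 5 FPKM or more, 4 with all annotated transcripts, 5 with equal coding sums and with median-of-ratios scaling, 6 with equal nuclear sums and 0 without genes listed at 0. Over all coding genes the share higher was 13.3% in the main setting and, in that order, 13.3%, 18.5%, 23.3%, 22.5%, 26.2% and 12.6%. The 31 lower genes became 19 with equal coding sums and with median-of-ratios scaling, 18 with equal nuclear sums and 14 without genes listed at 0. Over all coding genes the share lower was 70.5% in the main setting and, in that order, 53.8%, 54.4%, 50.7% and 54.4%. The median of -2.04 became -1.22 with assembled and -1.08 with all annotated transcripts, -1.02 with equal coding sums, -1.04 with median-of-ratios scaling, -0.81 with equal nuclear sums and -3.44 with a pseudocount of 0.1. With median-of-ratios scaling, equal coding sums and equal nuclear sums, in that order, TPP1 turned to 0.24, 0.32 and 0.59, LIPA to 0.14, 0.20 and 0.45, and CD63 to 0.13, 0.21 and 0.50; ATP6AP1 turned to 0.07 with equal nuclear sums.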
